A study of Mus musculus with 7 samples.

Results

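The cells described here are meningeal and perivascular fibroblasts, 98 of 32985 cells from mouse cortex. They were picked by their raw counts of unique molecular identifiers (UMIs, one per captured transcript). A cell was taken with at least 2 UMIs of Dcn and with at least 2 of the 5 genes Col1a1, Col1a2, Lum, Igf2 and Slc6a13 detected. It could have at most 1 UMI of Slc17a7, the vesicular glutamate transporter of excitatory neurons, and had to have fewer than 2 of Cldn5, the tight junction claudin of brain endothelium. Because these counts chose the cells, the levels of their genes against other cells are a description, and no test is attached to them.

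Brain fibroblasts lie in the meninges, the membranes around the brain, and in the perivascular space of larger penetrating vessels. They secrete fibrillar collagens and small leucine-rich proteoglycans, and they contribute to the basement membranes at the surface of the brain and around vessels. Meningeal fibroblasts are also known as a source of retinoic acid, bone morphogenetic proteins and the chemokine CXCL12. Fibroblasts of the pia, the arachnoid and the dura differ in the genes they express.

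Cells came from B6129SF1/J mice at postnatal day 30, housed with 12 h light and 12 h darkness, and from 2 cortical areas, the ventromedial prefrontal cortex (PFC) and MC, the motor cortex. The control genotype (CTRL) was Opn4-Cre/+; Brn3b-+/+, so the controls carry Cre at the melanopsin locus as well. The other genotype (DTA) was Opn4-Cre/+; Brn3b-zDTA/+, in which the A chain of diphtheria toxin kills cells where Cre has acted and Brn3b is active. The intended targets are the intrinsically photosensitive ganglion cells of the retina, its light-sensing output neurons that express melanopsin, of which those without Brn3b are spared. The PFC gave 2 CTRL and 3 DTA libraries, and the MC gave 1 library of each genotype. The labels speak of the brain extracted for each sample and do not say whether animals were pooled, so the spread between libraries may be partly technical.

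Replicates 1 and 2 of PFC CTRL gave 6 and 20 fibroblasts with 14213 and 42228 UMIs in all. Replicates 1 to 3 of PFC DTA gave 6, 21 and 13 with 11758, 72217 and 43602 UMIs. The MC gave 22 with 46102 UMIs (CTRL) and 10 with 43538 (DTA). The libraries of 6 cells therefore carry the least precise values. Levels are given as CPM, a gene's counts scaled to these totals, on which 1 UMI was worth 13.8 to 85.0 CPM and a floor of 3 UMIs 41.5 to 255 CPM, depending on the library. The chemistry counts 3′ ends, so a transcript's length does not enter the count. Whole libraries held 6180059 to 30972905 UMIs. The median UMI count per fibroblast was 1790.5 to 4383, so the threshold on Dcn was easier to pass in the deeper libraries. Pairs of libraries shared 7 to 92 cell barcodes.

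All 5 markers of the label are also genes of the rule, so selection partly fixed their detection and it is no check of the label. Dcn, which encodes the proteoglycan decorin, was present by rule in all 98 cells, Col1a2 in 92, Slc6a13 in 89, Col1a1 in 84 and Lum in 78. The 1879 endothelial cells of these libraries were chosen by their own UMI rule, with cells that met the fibroblast rule left out. Among them Dcn had a UMI in 0.160% of cells, Col1a2 in 1.12%, Slc6a13 in 0.160% and Lum in 0.0532%. The median depth was 2490 UMIs in the fibroblasts and 2090 in the endothelial cells. Igf2, an insulin-like growth factor gene and 1 of the 5 label markers, was nearly missing, with a UMI in 12 of 98 fibroblasts and a mean of 38.5 CPM. It was at 0 in 2 libraries, and H19, its imprinted neighbour, was at 0 in every library. Of the label markers the cells thus carried mainly the other 4, which selection partly fixed. All 15 further fibroblast markers that the rule did not use were detected, and their summed level was 5612 to 13579 CPM. In all other cells it averaged 249 CPM, but it was 2249 CPM in pericytes and 2618.5 CPM in endothelial cells.

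Markers of most other cell types were low. Cldn5, Ly6c1, Pecam1 and Kdr of endothelium had 0 UMIs, as did Myh11 and Cnn1 of smooth muscle, Cx3cr1 of microglia, Mrc1, Cd163 and F13a1 of perivascular macrophages and Gfap of astrocytes. The rule limited Cldn5, and also Slc17a7 among the neuronal markers, so selection partly fixed the low counts of these 2 genes. The 10 endothelial markers summed to 425 to 1101 CPM, most of it from Itm2a. The 10 pericyte markers summed to 1942 to 5484 CPM, most of it from Vtn, and Rgs5 had 19 UMIs, all in a single cell of MC DTA. The 7 astrocyte markers summed to 211 to 1361 CPM, the highest in replicate 1 of PFC DTA, against 1452 CPM in all other cells. The 5 macrophage markers were at 0 in 5 of 7 libraries and reached 239 CPM in MC CTRL, where 1 cell held all 11 UMIs of Pf4. The 9 neuronal markers summed to 493 to 2892 CPM against 9829 CPM in all other cells. Single cells held many of these UMIs, with 31 in 1 of the 6 cells of PFC DTA replicate 1, the highest library. Another cell, in PFC CTRL replicate 2, held 48. The doublet caller marked 0 of the 98 cells. At least 3 UMIs of a leading marker of neurons, glia, pericytes or endothelium were found in 11 of them.

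Cells at the edge of the rule were few. With Dcn at exactly 2 UMIs there were 11 fibroblasts, which had a median of 1331 UMIs per cell, 1853 CPM of Col1a2 and 2012 CPM of Slc6a13. With Dcn at 1 UMI there were 15 cells that met the other conditions and were left out. These had a median of 1480 UMIs, 1559 CPM of Col1a2 and 1407 CPM of Slc6a13. Of the 5 accessory genes, 12 fibroblasts had 2, 22 had 3, 55 had 4 and 9 had 5.

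**Figure D1:**
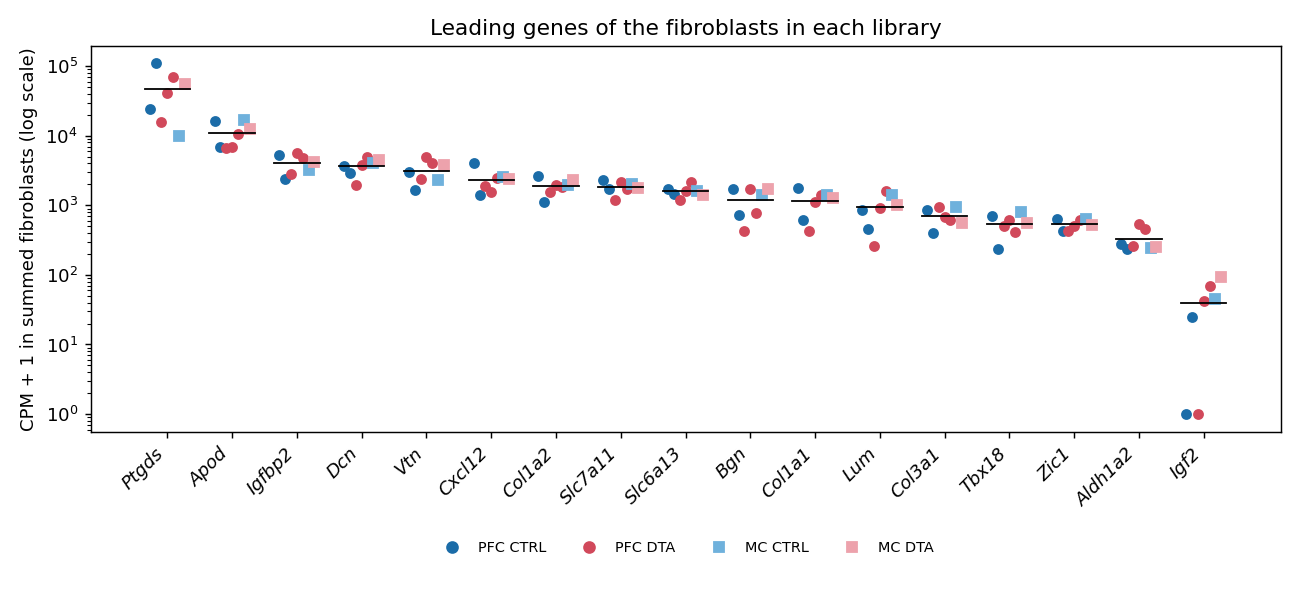
Level of 17 genes in the summed fibroblasts of each library, as CPM + 1 on a log axis. Each point is 1 library, coloured by genotype, with circles for the PFC and squares for the MC, and the bar is the mean over 7 libraries. Ptgds spreads from 10021 to 109290 CPM while Slc6a13 stays between 1191 and 2156 CPM, and Igf2 is near or at 0.

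Among collagen and proteoglycan genes Dcn, Lum, Col1a1 and Col1a2 are high by selection. Dcn (GRCm38 chr10:97479609-97518143) stood at 3659 and 2936 CPM in the CTRL libraries of the PFC, at 1956, 3850 and 5000 CPM in its DTA libraries, and at 4078 (CTRL) and 4479 CPM (DTA) in the MC. All other cells averaged 1.99 CPM. Its neighbour on the chromosome, Lum (chr10:97565128-97572703), which encodes lumican, a proteoglycan that also sits on collagen fibrils, stood at 844, 450, 255, 928, 1628, 1410 and 1011 CPM in the same order. PFC DTA replicate 1, with 6 cells, was the lowest library for both genes.

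Type I collagen was read from Col1a2 (chr6:4504814-4541544) at 1900 ± 486 CPM and Col1a1 (chr11:94936224-94953042) at 1145 ± 471 CPM (SD, n = 7), the 2 chains that assemble into its fibrils. Col3a1, the type III collagen gene of soft tissue, followed at 709 ± 203 CPM. All 10 fibrillar and associated collagen genes on the list were detected, and 9 were higher than in pericytes. The lowest was Col14a1, with 1 UMI. Among the proteoglycans Bgn, which encodes biglycan, stood at 1208 ± 547 CPM, Prelp at 447 ± 238, Fmod at 256 ± 208 and Ogn at 203 ± 114 CPM (SD, n = 7). Fmod, the fibromodulin gene, was at 0 in PFC DTA replicate 1.

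Genes that process or protect the matrix were also high. Serpinh1, the collagen chaperone of the endoplasmic reticulum, stood at 1164 ± 580 CPM. Pcolce, which encodes an enhancer of procollagen cleavage, stood at 1071 ± 464 CPM, and Serpinf1 at 1103 ± 374 CPM. The metalloproteinase inhibitor gene Timp3 stood at 854 ± 354 CPM and the complement C1 inhibitor gene Serping1 at 514 ± 183 CPM (SD, n = 7 for each). Sparc, a collagen-binding glycoprotein gene, stood at 3335 ± 743 CPM, and in pericytes at 2020 CPM. Its endothelial level is not given here. The matrix glycoprotein list that holds Sparc summed to 9552 CPM on average in fibroblasts, 15226 in pericytes and 4811 in endothelial cells. Fap and Dpp4 of the matrix turnover list were at 0.

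All 17 basement membrane genes of the list were detected, and 16 were above their level in other cells. Some are shared with the vessel wall and some are not. Col4a1 and Col4a2, the common type IV collagen chains, stood at 339 and 263 CPM, within the range of 227 to 415 CPM in pericytes, smooth muscle and endothelial cells. Col15a1, a collagen at the outer face of basement membranes, stood at 348 CPM in the fibroblasts, and at 0.630 CPM in pericytes and 0.134 CPM in endothelial cells. Col4a5 stood at 305 CPM against 8.22 CPM in pericytes, and Lama1, the laminin chain of the brain surface, at 128 CPM against 0 in pericytes. Col15a1, Col4a5, Col18a1, Lama1 and Lamc3 were above pericytes in 7 of 7 libraries, Col4a1 in 2 and Col4a2 in 4.

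The most abundant gene after the nuclear RNA Malat1 (52565 CPM) was Ptgds (chr2:25466709-25470046), which encodes the lipocalin-type prostaglandin D synthase of the leptomeninges and the cerebrospinal fluid. It took up 1% to 10.9% of all fibroblast UMIs of a library. Apod, a lipocalin that carries lipids, stood at 10937 ± 4416 CPM, Igfbp2, an insulin-like growth factor binding protein gene, at 4068 ± 1273 CPM, and Spp1, the osteopontin gene, at 2126 ± 1589 CPM (SD, n = 7). Spp1 was spread most among these 3, with 5277 CPM in replicate 1 of PFC CTRL and 663 CPM in replicate 2. In replicate 1, 1 of the 6 cells held 38 UMIs of Spp1, at 70.4 CPM for each UMI. With 10 CPM added to both levels, the mean log2 ratio to all other cells was 8.23 for Dcn, 7.28 for Spp1 and 7.02 for Apod. Of the genes with a mean of at least 100 CPM, the 12 with the largest ratios also held Slc6a13, Col1a2, Igfbp2, Col1a1, Fam180a, Lum, Pcolce, Itih5 and Nupr1. Ptn at 10753 CPM and Apoe at 8940 CPM, chosen after their values were seen, encode the growth factor pleiotrophin and apolipoprotein E. Their levels in all other cells were 777 and 1284 CPM.

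Genes of retinoic acid synthesis marked the fibroblasts off from the vessel wall. Aldh1a2 (chr9:71215789-71296243), the enzyme that makes retinoic acid in the meninges, had a UMI in 50 of 98 fibroblasts and in 0 of 1879 endothelial cells, which allows up to 0.160% of cells with a UMI there. It stood at 281 and 237 CPM in the CTRL libraries of the PFC, at 255, 540 and 459 CPM in its DTA libraries, and at 239 (CTRL) and 253 CPM (DTA) in the MC, so that replicates 2 and 3 of PFC DTA were the highest. Pericytes and smooth muscle cells had 0 UMIs of it. Aldh1a1, a related enzyme, stood at 470 ± 133 CPM, and Cyp1b1, a cytochrome P450 that can oxidise retinol, at 207 ± 121 CPM (SD, n = 7). Crabp1 and Cyp26b1 of this list were at 0.

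Secreted signals included the bone morphogenetic proteins Bmp7 at 400 ± 199 CPM and Bmp6 at 264 ± 87.5 CPM, both at 0 in pericytes. Wnt5a, a ligand of non-canonical Wnt signalling, stood at 197 ± 56.3 CPM, and Nbl1, a BMP antagonist gene, at 766 ± 124 CPM (SD, n = 7). Tgfb2, Dkk2, Sfrp2, Wif1 and Grem1 were at 0. Cxcl12, a chemokine gene, stood at 2321 ± 897 CPM, above its 1515 CPM in endothelial cells on average. Il34, which encodes a ligand of the receptor that maintains microglia, stood at 567 ± 304 CPM (SD, n = 7). Il6 and C1s1 were at 0. Of the receptors, Fgfr1 stood at 437 ± 126 CPM and Pdgfra at 383 ± 176 CPM, while Pdgfrb, the receptor of mural cells, stood at 157 CPM against 956 CPM in pericytes.

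Transporters and gap junction genes of the meninges formed another large group, with 19 of 21 detected. Slc7a11, the cystine and glutamate exchanger, stood at 2322, 1705, 1191, 2160, 1720, 1996 and 1792 CPM in the libraries in the order above, all far over the 27 CPM of all other cells. Slc6a13 (chr6:121300227-121337733), a GABA and taurine carrier of the meninges, was a rule gene and stood at 1589 ± 300 CPM. Slc6a20a, a proline carrier, stood at 984 ± 514 CPM, and Slc22a6, an organic anion transporter, at 528 ± 248 CPM (SD, n = 7). The connexin genes Gjb6 and Gjb2, neighbours at chr14:57123303-57133611 and chr14:57098600-57104702, stood at 809 ± 343 and 724 ± 329 CPM. Both had a UMI in 50 cells, Gjb2 alone in 15, Gjb6 alone in 12 and neither in 21. Slc47a1 and Slc26a7 were at 0. Of the 8 arachnoid barrier markers measured, 4 were detected, Tjp1 with 28 UMIs among them, and 2 were above other cells. Their sum was 141 to 299 CPM, and Dpp4, Krt18, Krt8 and Dsp were at 0. Of the dural markers Dkk2, Cd34 and Pi16 were at 0. Gjb6 and Mgp supplied most of the dural list's sum of 499 to 3912 CPM.

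Of 24 transcription factors listed for meningeal lineages, 21 were in the tables and 20 had a UMI. Tbx18 stood at 547 ± 187 CPM, Zic1 at 537 ± 92.0 CPM, Zic4 at 317 ± 135 CPM and Foxc1 at 201 ± 82.4 CPM (SD, n = 7). Zic1 was also at 509 CPM in pericytes and was above them in 3 of 7 libraries. Tbx18, at 130 CPM in pericytes, was above them in 7 of 7. Zic1 and Zic4 overlap on opposite strands of chromosome 9, and the sources used here do not say whether the authors' counting used strand, so their levels are uncertain. Prrx2, at 125 ± 53.8 CPM, stood at 13.4 CPM in pericytes and at 0.360 CPM in endothelial cells.

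**Figure D2:**
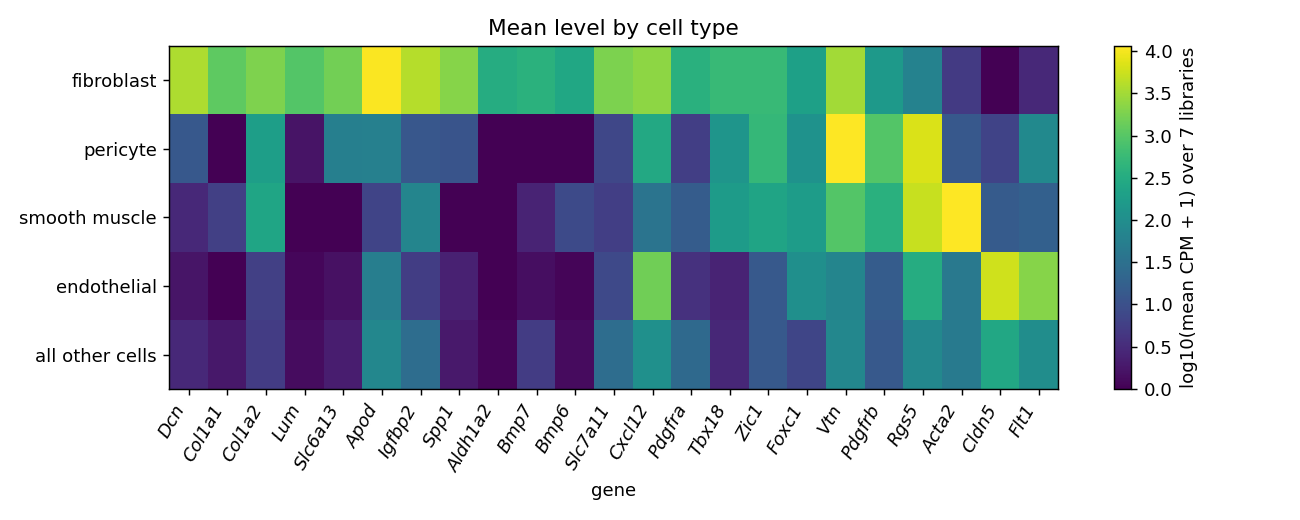
Mean CPM over 7 libraries, as log10(CPM + 1) in colour, of 23 genes (columns) in fibroblasts, pericytes, smooth muscle cells, endothelial cells and all cells other than fibroblasts. The 5 leftmost genes belong to the rule for fibroblasts, and Vtn, Rgs5, Acta2, Cldn5 and Flt1 to the rules for the other types. Aldh1a2, Bmp7 and Bmp6 are bright in the fibroblasts alone among the 4 types, and Zic1, Foxc1 and Vtn are also bright in pericytes.

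Vtn, which encodes vitronectin, links the fibroblasts to pericytes. It stood at 3025, 1681, 2381, 4957, 3991, 2343 and 3767 CPM in the libraries in the order above, and 89 of 98 fibroblasts had a UMI. It had a UMI in 3.14% of endothelial cells. The 550 pericytes, for which Vtn was a rule gene, had 11568 CPM, more than the fibroblasts in 7 of 7 libraries. All 10 pericyte markers had a UMI in the fibroblasts, and 0 of them reached its pericyte level on average. Besides Vtn, the pericyte rule used Kcnj8, Abcc9, Rgs5, Higd1b, Atp13a5 and Ndufa4l2. Selection of the pericytes thus partly fixed this, and it is no check of the label. Rgs5, Higd1b, Kcnj8, Abcc9 and Notch3 each had all their UMIs in 1 cell of MC DTA, and 1 cell of that library held 102 UMIs of pericyte markers beside 3 of Dcn.

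The fibroblasts differed widely among themselves in Ptgds. It made up 0 to 3261 of every 10000 UMIs of a cell, with a median of 81.2, and 22 of 98 cells had none. The median of a library was 118 and 719 per 10000 for PFC CTRL, 0, 98.2 and 371 for PFC DTA, and 4.74 (CTRL) and 65.1 (DTA) for the MC. A split at 100 per 10000, set after the values were seen, gave 44 high and 54 low cells, of which 12 lay between 50 and 200. The high cells numbered 3 of 6 and 11 of 20 for PFC CTRL, 1 of 6, 10 of 21 and 11 of 13 for PFC DTA, and 4 of 22 (CTRL) and 4 of 10 (DTA) for the MC. Median depth was 2880.5 UMIs in high and 2192 in low cells. This split is a range of a single gene and not a pair of cell types, and the values that follow are a description on CPM computed without Ptgds itself. Counts of libraries below include PFC DTA replicate 1, with 1 high cell, and PFC DTA replicate 3, with 2 low cells, so they are a weak measure.

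**Figure D3:**
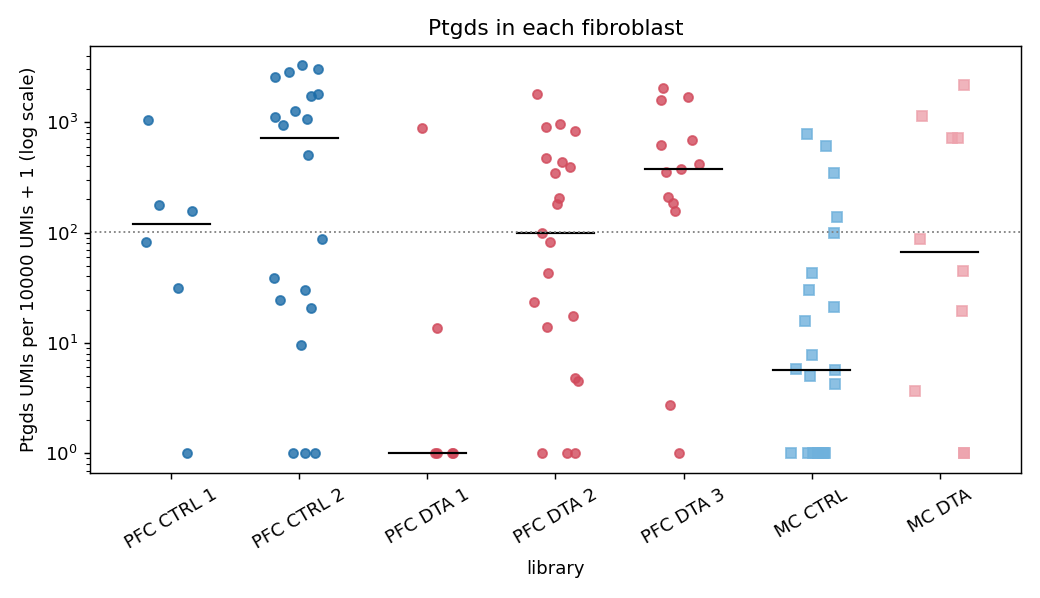
Ptgds per 10000 UMIs + 1 of each of the 98 fibroblasts on a log axis, by library; the bar is the library's median and the dotted line marks the split at 100. Every library holds cells on both sides, and 18 of 22 cells of MC CTRL lie below the line against 2 of 13 of PFC DTA replicate 3.

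Some of the genes that chose the cells were close on both sides. Dcn stood at 4387 CPM in high and 3925 CPM in low cells, Slc6a13 at 1676 and 1750 CPM, Col1a2 at 1833 and 2122 CPM. Vtn was at 3729 and 3561 CPM. Fibroblast markers outside the rule went both ways, with Pcolce at 1324 in high and 1023 CPM in low cells, Bgn at 1034 and 1705, Pdgfra at 313 and 523, Nid1 at 196 and 341 and Col3a1 at 611 and 796 CPM. Cells with high Ptgds had more of the connexin genes, with Gjb6 at 1473 against 364 CPM, a ratio of 4.05 and higher in 7 of 7 libraries. Gjb2 was at 1277 against 432 CPM and higher in 6 of 7. Aldh1a2 was at 572 against 189 CPM and Isyna1, an inositol synthesis gene, at 822 against 296 CPM, both higher in 7 of 7. Aldh1a1 went the other way, at 423 against 606 CPM and lower in 5 of 7. Fmod was at 478 against 68.2 CPM and higher in 6 libraries. Coch, which encodes the matrix protein cochlin, had 99 UMIs in 16 high cells and 0 in the low cells, at least 34.1-fold higher than a floor of 3 UMIs over all low cells. Of the 99 UMIs, 22 came from 1 cell of PFC CTRL replicate 2. Coch, Isyna1, Edn3 and, above, Malat1 were chosen after their values were seen.

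Basement membrane genes ran the other way. Of the 14 with at least 20 UMIs in all, 13 were lower in cells with high Ptgds, and the whole list summed to 2303 CPM there and to 4190 CPM in low cells. Col4a1 stood at 157 against 591 CPM, 3.77-fold higher in low cells, and Col4a2, which lies head to head with it on chromosome 8, at 157 against 409 CPM. Col4a5 stood at 196 against 477 CPM. With 20 high-cell UMIs each of Col4a1 and Col4a2 and 25 of Col4a5, these 3 were lower in the high cells of 7 of 7 libraries. So were Itih5, a hyaluronan-binding protein gene, at 1371 against 2266 CPM, and Edn3, the endothelin 3 gene, at 470 against 811 CPM. Spp1 was lower in 6 of 7, at 893 against 2470 CPM. Of 15 dissociation and immediate early genes with at least 20 UMIs, 14 were higher in the high cells, with a sum of 12189 against 9343 CPM. Whether this response has a part in the Ptgds contrast was not tested.

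**Figure D4:**
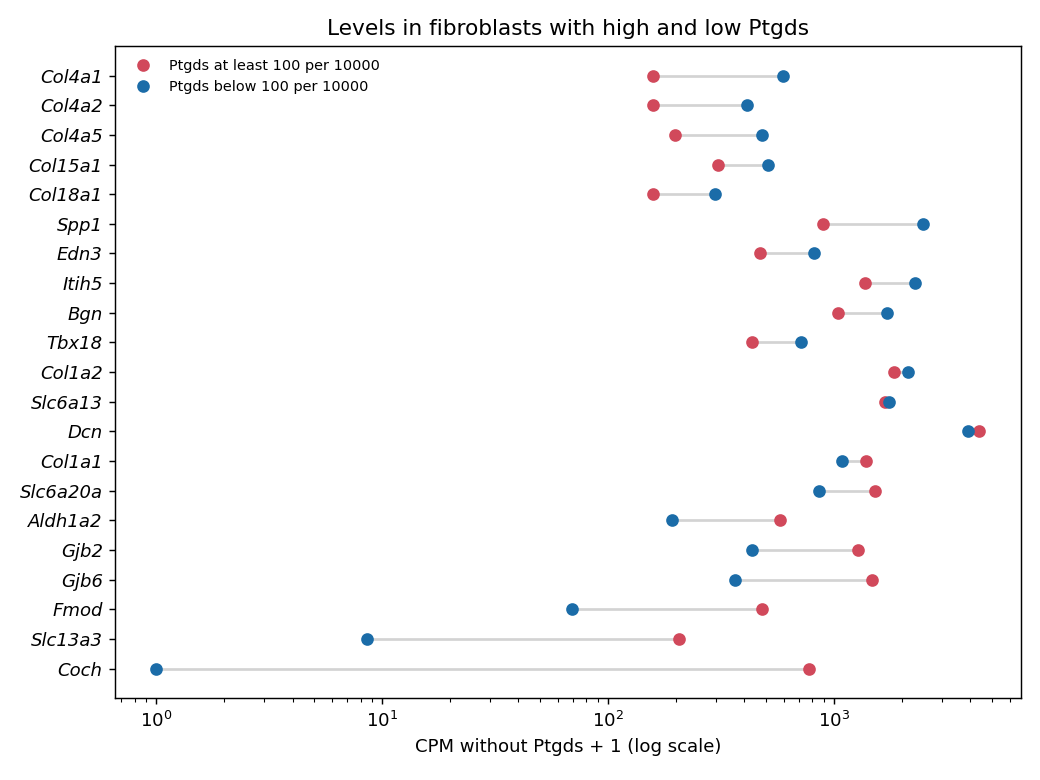
CPM without Ptgds, plus 1, on a log axis for genes in the rows, in the 44 fibroblasts with high Ptgds (red) and the 54 with low Ptgds (blue), with cells of all libraries summed. Basement membrane genes and Spp1 lie to the right in low cells, Dcn and Slc6a13 nearly coincide, and Gjb2, Gjb6, Aldh1a2, Fmod and Coch lie to the right in high cells.

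The sequences before the start sites of Gjb2, Gjb6 and Aldh1a2 are shown because these genes were higher together in the cells with high Ptgds. Each is the 250 bases before the start, 5′ to 3′ on the gene's strand, from RefSeq on GRCm38.p6, and overlaps 0 annotated exons. Capitals mark CCAAT and GGGCGG, searched on both strands. The windows lie at chr14:57104703-57104952 on the minus strand (Gjb2), chr14:57133612-57133861 on the minus strand (Gjb6) and chr9:71215539-71215788 on the plus strand (Aldh1a2).
Gjb2: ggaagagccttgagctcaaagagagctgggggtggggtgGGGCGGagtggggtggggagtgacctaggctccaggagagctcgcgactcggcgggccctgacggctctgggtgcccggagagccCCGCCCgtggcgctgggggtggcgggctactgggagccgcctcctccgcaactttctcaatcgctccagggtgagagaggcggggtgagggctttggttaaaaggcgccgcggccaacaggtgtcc
Gjb6: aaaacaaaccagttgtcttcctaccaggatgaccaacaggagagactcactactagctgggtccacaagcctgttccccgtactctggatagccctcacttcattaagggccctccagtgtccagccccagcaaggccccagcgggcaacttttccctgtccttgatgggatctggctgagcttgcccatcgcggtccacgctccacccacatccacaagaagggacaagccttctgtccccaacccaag
Aldh1a2: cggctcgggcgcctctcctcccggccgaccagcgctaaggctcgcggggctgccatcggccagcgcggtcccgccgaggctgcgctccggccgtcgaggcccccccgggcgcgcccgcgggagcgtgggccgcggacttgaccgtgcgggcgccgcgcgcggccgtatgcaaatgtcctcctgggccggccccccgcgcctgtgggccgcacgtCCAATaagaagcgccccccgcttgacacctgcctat
The Gjb2 window held 2 matches to GGGCGG and 0 to CCAAT. The Aldh1a2 window held 1 match to CCAAT, and the Gjb6 window held neither. Among 32536 windows of the same length, 33.0% held GGGCGG and 33.8% held CCAAT, so these matches are common and the 3 windows did not share either of them.

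The share of fibroblasts was compared between the PFC genotypes, a measure the rule did not use. It was 0.310% (95% exact Clopper-Pearson interval 0.114 to 0.673) and 0.202% (0.124 to 0.312) in CTRL replicates 1 and 2. It was 0.229% (0.0840 to 0.497), 0.542% (0.336 to 0.828) and 0.214% (0.114 to 0.366) in DTA replicates 1 to 3. The groups overlapped, at 0.256% ± 0.0760 (SD, n = 2) and 0.328% ± 0.185 (SD, n = 3), and an exact two-sided permutation test of the difference of 0.0722 percentage points gave p = 0.8, where 0.1 is the smallest p that 2 against 3 libraries allow. The highest share belonged to DTA replicate 2, and without it the difference was -0.0348 percentage points. The MC libraries had 0.353% (0.221 to 0.534) in CTRL and 0.421% (0.202 to 0.774) in DTA. The intervals cover counting error only, and the sources used here do not say how much of the meninges stayed on the excised tissue. Fewer cells of a type and fewer captured ones cannot be told apart.

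Fibroblast genes were next compared between DTA and CTRL in the PFC, to ask whether loss of the retinal cells goes with a change in these cells. No gene passed the threshold. Of 839 genes tested, edgeR (quasi-likelihood, Benjamini-Hochberg adjustment) called 0 (0%), DESeq2 also called 0, and the smallest edgeR adjusted p was 0.994. An unadjusted p under 0.05 was reached by 37 genes (4.41%), and the groups did not overlap in 134 (16%). On simulated counts of 753 genes in these libraries 23 of 93 changes of 2-fold and 75 of 86 of 4-fold were called. There were 5 false calls. Changes were given only to better counted genes, many at once, and all genes shared 1 dispersion. These shares may therefore not hold for the real counts. Even so, most 2-fold changes were missed.

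The gene with the smallest p on the lower side was Ctgf, a matrix-associated growth factor gene, at 774 and 426 CPM in CTRL and 170, 152 and 0 CPM in DTA. Every DTA library lay below both CTRL libraries (log2 fold change -2.47, SE 0.65, edgeR adjusted p 0.994). The DTA values rest on 2, 11 and 0 UMIs. Scaled to library size, Ctgf reached the level of the filter on low counts only in CTRL libraries. In the MC, Ctgf had 34 UMIs (737.5 CPM) in CTRL and 3 (68.9 CPM) in DTA. Leaving out the cells with 3 or more UMIs of another type's marker gave an edgeR adjusted p of 0.0206 at -2.48. Camk2n1, a kinase inhibitor gene of neurons (-2.04, SE 0.60), and Ywhah, a 14-3-3 protein gene (-1.54, SE 0.51), came next, followed by Fxyd6 and Ndufs6. The neuronal markers summed to 493 and 2273 CPM in the fibroblasts of CTRL and to 2892, 1080 and 1353 CPM in those of DTA, and their part in Camk2n1 and Ywhah was not tested.

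On the higher side 4 of the 5 genes with the smallest p encode ribosomal proteins, whose counts may include those of pseudogenes. Rpl38 stood at 493 and 213 CPM in CTRL and 680, 1163 and 734 CPM in DTA (1.48, SE 0.49, edgeR adjusted p 0.9995). Rpl37 (1.29), Rps29 (1.12) and Rpl39 (1.21) were similar in size. The fifth was Lamc1, the laminin gamma 1 gene, at 141 and 23.7 CPM in CTRL and 85.0, 402 and 252 CPM in DTA (2.28, SE 0.86).

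The fixed lists showed no called member either. All 6 tested basement membrane genes had a positive fold change, with a median of 0.82 beside -0.04 over all genes tested, and 2 had an unadjusted p under 0.05. Col4a2 stood at 141 and 94.7 CPM in CTRL and 425, 374 and 183 CPM in DTA, with no overlap between groups (1.41, SE 0.66), while the groups overlapped for Col4a1 (0.90, SE 0.62). Scaled to library size, Lamc1 and Col4a2 reached the level of the filter on low counts only in DTA libraries. The filter thus partly fixed their sign. With no filter, 14 of 17 members were positive, with a median of 0.87 beside 0.14 over all genes. Without DTA replicate 3 only 2 members were tested, both positive, and without DTA replicate 2 none was tested. Without CTRL replicate 2, 4 of 7 were positive and the median was 0.40. With only the libraries of at least 10 fibroblasts it was 1.24, with CTRL replicate 2 as the single CTRL library. The 3 retinoid genes had a median of 0.55, with Aldh1a2 at 0.80 (SE 0.49). The 11 transporter and gap junction genes had 5 values above and 6 below 0, with a median of -0.04. It was 0.44 and 0.02 when CTRL replicate 2 or 1 was left out, and -0.44 and -0.42 when DTA replicate 2 or 3 was. The 3 fibrillar collagen genes had a median of 0.03, and Col1a2 stood at 0.03 (SE 0.38), Dcn at 0.15 (SE 0.40) and Slc6a13 at 0.07 (SE 0.38). Ptgds, which varied widely between cells, stood at -0.78 (SE 0.69).

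Whether fibroblasts differ between the areas was asked by setting the MC against the PFC over all 7 libraries, with a term for genotype. Of 960 genes tested, edgeR called 0 (0%) and DESeq2 0, and the smallest edgeR adjusted p was 0.759. Some 38 genes (3.96%) had an unadjusted p under 0.05, and the areas did not overlap in 79 (8.23%). On simulated counts of 949 genes 38 of 100 changes of 2-fold and 86 of 99 of 4-fold were called, with 4 false calls. This simulation had the same limits as that for the PFC.

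Toward the MC the smallest p-values belonged to Colec12, Col15a1, Fbln2, Lrp1 and Col18a1. Col15a1 (chr4:47208161-47313167) stood at 281, 142, 85.0, 346 and 390 CPM in the PFC and at 477 and 712 CPM in the MC. Both MC libraries were above every PFC library (log2 fold change 1.18, SE 0.40, edgeR adjusted p 0.759). Fbln2, the fibulin 2 gene, stood at 0 to 70.4 CPM in the PFC and at 239 and 253 CPM in the MC (2.34, SE 0.80). Col18a1 stood at 85.0 to 194 CPM in the PFC and at 304 and 413 CPM in the MC (1.34, SE 0.50). Scaled to library size, Fbln2 and Col18a1 reached the level of the filter on low counts only in the MC. The filter thus partly fixed their direction. Colec12, a scavenger receptor gene (1.0, SE 0.34), and Lrp1, a lipoprotein receptor gene (1.02, SE 0.35), were also higher in both MC libraries than in every PFC library. Pdgfra, at 170 to 493 CPM in the PFC and 542 and 620 CPM in the MC, differed by 0.89 (SE 0.38).

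On the lower side in the MC stood Nnat, the neuronatin gene, at 0 and 91.9 CPM in the MC and 70.4 to 665 CPM in the PFC (-2.90, SE 0.85). Ndnf, a secreted factor gene that some cortical interneurons also express, stood at 21.7 and 45.9 CPM in the MC and 47.4 to 422 CPM in the PFC (-2.67, SE 0.85). Lmo4, a transcription cofactor gene of the cortex, stood at 130 and 68.9 CPM in the MC and 211 to 425 CPM in the PFC (-1.67, SE 0.55). Nnat, Ranbp3l (-1.52, SE 0.50) and the chaperone gene Dnajb1 (-3.31, SE 1.08) overlapped between the areas. The MC values of Nnat, Ndnf and Dnajb1 rest on at most 4 UMIs a library. These genes and Lmo4 reached the level of the filter on low counts only in the PFC, which partly fixed their direction.

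By list, 7 of 7 tested basement membrane genes were higher in the MC, with a median of 0.72 beside -0.03 over all genes tested, and 9 of 11 transporter and gap junction genes were lower, with a median of -0.58. Of these, 2 and 5 had an unadjusted p under 0.05, and 0 were called. Gjb6 stood at 774, 1160, 510, 1011 and 1216 CPM in the PFC and at 282 and 712 CPM in the MC (-1.03, SE 0.40). Slc13a4, an anion transporter gene, stood at 166 to 422 CPM in the PFC and at 86.8 and 115 CPM in the MC (-1.30, SE 0.60). Slc13a4 reached the level of the filter on low counts only in the PFC, and Col18a1 only in the MC. The filter thus partly fixed their direction. With no filter, 14 of 17 basement membrane genes were higher in the MC at a median of 0.63. Of the transporter and gap junction genes, 13 of 19 were then lower at -0.35. Between cells of high and low Ptgds the basement membrane list also differed, while of 13 transporter and gap junction genes with at least 20 UMIs 7 were higher and 6 lower in high cells. The high cells numbered 4 of 22 in MC CTRL, and their part in the area values was not tested. With the low cells alone, in the 5 libraries that kept at least 5 of them, 5 of 6 basement membrane genes were higher in the MC at a median of 0.45, and 6 of 8 transporter genes were lower at -0.28. Without MC CTRL, 5 of 9 basement membrane genes were higher at a median of 0.20, and without MC DTA 8 of 9 at 1.18. The transporter median was -0.91 without MC DTA.

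**Figure D5:**
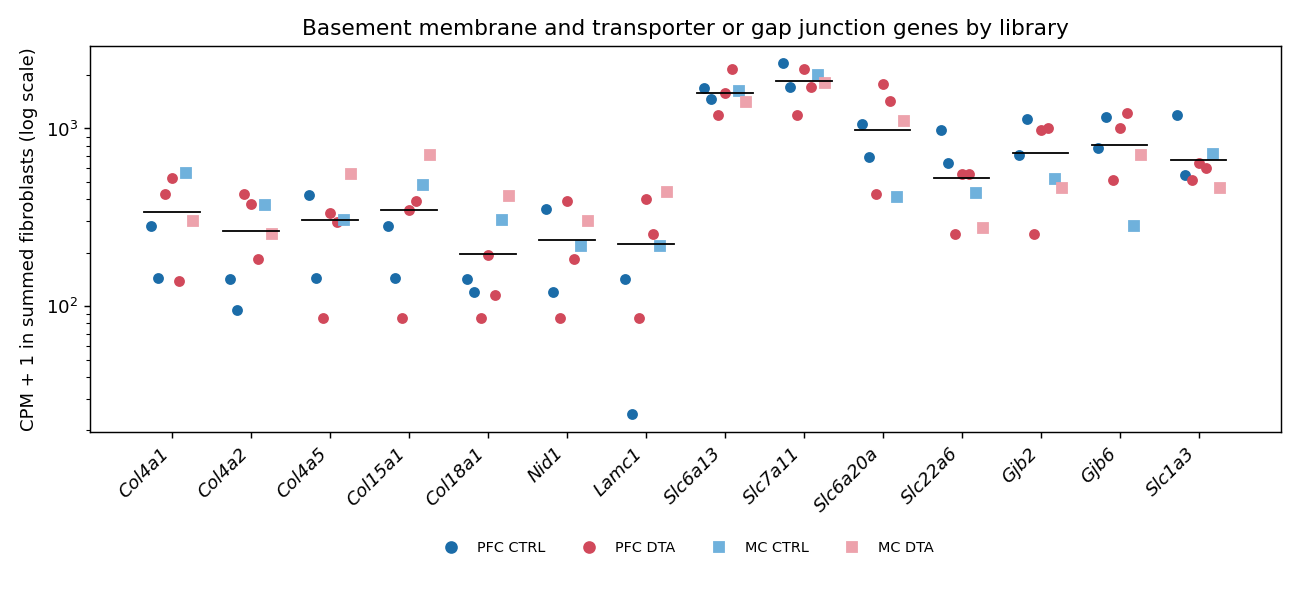
CPM + 1 on a log axis of 7 basement membrane genes (left) and 7 transporter or gap junction genes (right) in the summed fibroblasts of each library. Circles are PFC and squares MC libraries, colours give the genotype and the bar is the mean over 7 libraries. Both MC squares lie above all PFC circles for Col15a1 and Col18a1, and Gjb6 ranges from 282 CPM in MC CTRL to 1216 CPM in PFC DTA replicate 3.

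In the MC the genotypes had 1 library each and no test was possible. The values compare those libraries, with exact 95% intervals for counting error. Ptgds had 462 UMIs in CTRL and 2437 in DTA, a log2 ratio of 2.48 (2.34 to 2.63), and 51.7% of the DTA UMIs came from 1 cell. Gjb6 (1.34, 0.36 to 2.39), Slc6a20a (1.42, 0.63 to 2.27) and Apoe (0.75, 0.51 to 0.99) were also higher in the DTA library. Spp1 (-0.79, -1.25 to -0.35), Fmod (-1.82, -3.87 to -0.17) and Fos, an immediate early gene (-0.92, -1.37 to -0.47), were lower. Vtn at 0.69 (0.33 to 1.05) and the pericyte gene Ndufa4l2 at 1.93 (0.45 to 3.72) were higher in the library whose fibroblasts include the cell with 19 UMIs of Rgs5, and that cell's part in them was not tested. Dcn (0.14, -0.16 to 0.43), Col1a2 (0.25, -0.18 to 0.68) and Slc6a13 (-0.22, -0.73 to 0.29) had intervals that include 0.

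With so few cells some levels rested on a single one. Mgp, the matrix Gla protein gene, averaged 555 CPM, but 37 of its 72 UMIs came from 1 cell of PFC DTA replicate 1. A single cell of PFC DTA replicate 1 also held 13 of the 14 UMIs of Fn1, the fibronectin gene of the marker list. The interferon genes Isg15 and Ifit1, chosen after their values were seen, had 22 of 26 and 19 of 20 UMIs in 1 cell of PFC DTA replicate 3. In contrast the leading cell held 6.27% of the UMIs of Col1a1 and 4.81% of those of Slc7a11.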

How the data were processed

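Single cells of mouse cortex were measured in 7 libraries of 10x Genomics 3′ chemistry. The deposited tables hold UMI counts per gene and cell; Cell Ranger 3.0.2, Seurat and mm10 are named in the submitters' processing notes. Every deposited cell had at least 501 genes, and no further cell filter was applied. Scrublet (scanpy 1.11.5) called doublets, which were left out only as an alternative; a rate outside 0.5% to 15% was replaced by 0.8% for each 1000 cells, taken by score. Counts of the fibroblasts were summed per library. The test was edgeR 4.0.16 (quasi-likelihood, robust, TMM factors, adjusted p threshold 0.05) after filterByExpr with a minimum count of 10; DESeq2 1.42.0 was an alternative. The SE is the size of the log2 fold change over the root of F. The tests were checked on simulated counts.

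The cells, lists and tests were chosen with earlier results of these data known. Named were the rule genes, up to 6 members of each list by mean level, the 12 genes with the largest ratio to other cells among those of at least 100 CPM, and the 5 smallest p each way with a mean of at least 50 CPM. Others are named as chosen after their values were seen, and a few genes that the rule would name are not reported here. Gene positions are from GENCODE M21 (GRCm38). Alternatives were RLE size factors, no filter, a test that is not robust, Dcn thresholds of 1 and 3 UMIs, doublets or cells with other markers left out, libraries of at least 10 fibroblasts, a depth term, a replicate block, another denominator and each library left out.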

Additional observations from a re-analysis of the deposited data

Results flagged for a closer look

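For 5 named or listed genes every PFC DTA library lay on one side of every CTRL library, and the MC libraries differed the other way; none passed the test in the PFC, and the difference between the areas was not tested. The PFC groups were apart, in either direction and whatever the MC libraries showed, in 16% of all genes of the PFC comparison. The share that also differed the other way in the MC was not computed over all genes. Bmp6 had a PFC log2 fold change of 0.82, and in the MC it stood at 325 CPM (CTRL) and 276 CPM (DTA). Col4a2 had 1.41, with 369 and 253 CPM. Fstl1, a follistatin-like glycoprotein gene, had 1.35, with 325 and 253 CPM. Fxyd6, a regulator of the sodium pump, had -1.26, with 456 and 551 CPM. Ier3, an early response gene, had -0.72, with 369 and 551 CPM. The MC intervals for Bmp6 (-1.47 to 0.96), Col4a2 (-1.79 to 0.63), Fstl1 (-1.63 to 0.86) and Ier3 (-0.38 to 1.57) on the log2 scale include 0. Of 15 named or listed genes apart in the PFC, the other 10 had an MC difference in CPM of the same sign, however small. Among them Gja1 had 9 UMIs in each MC library. The MC intervals of Il34 (-0.77 to 0.68) and Slc22a6 (-1.82 to 0.45) include 0.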

How the results depend on the processing

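The count of 0 genes in the PFC stayed at 0 in each alternative but 3. With Dcn at 1 UMI or more edgeR called 1 gene, Igfbp5 (log2 fold change 4.95). With cells holding other markers left out it called 1, Ctgf (-2.48), and with libraries of at least 10 fibroblasts 1, Meg3 (-3.77). That last setting leaves CTRL replicate 2 as the only CTRL library, assumed to vary like the others, and 56 of the 120 UMIs of Meg3 came from 1 of its cells. Without each PFC replicate the count ranged from 0 to 0. For the areas, 2 genes were called with no filter on low counts, Rgs5 (6.52) and Coch (-4.47), and 1 with libraries of at least 10 fibroblasts, Coch (-5.42). Leaving out each library gave 0 to 1, namely Coch without PFC CTRL replicate 1, Hes1 without PFC DTA replicate 2 and Klf4 without PFC DTA replicate 3. The 19 UMIs of Rgs5 came from 1 cell, and Coch stood at 1800 CPM in PFC CTRL replicate 2 and at 0 to 263 CPM elsewhere; other causes were not tested. These genes other than Ctgf were chosen after their values were seen. With the cells of low Ptgds alone, an alternative chosen after seeing the data, the areas gave 0 calls. The share difference of 0.0722 percentage points ranged from -0.0348 (without PFC DTA replicate 2, reversed) to 0.129 without each replicate. It was 0.0133 with Dcn at 1 UMI or more, 0.0443 with 3 or more, and 1.37 with vascular cells as the denominator (2.66% in CTRL, 4.02% in DTA, exact permutation p = 0.5). The replicate block gave 0 calls in the PFC. Deviations of same-numbered PFC libraries from their genotype mean correlated at -0.04 and -0.16. The deviations of 2 CTRL libraries mirror each other, so these values cannot decide whether the numbers pair the libraries. Cell number limits the values: 2 libraries had 6 fibroblasts, where 3 UMIs amount to 211 and 255 CPM.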
